A study of Saccharomyces cerevisiae with 16 samples.

Results

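Of 4383 regions between neighbouring genes that could be compared across 12 transcription factors of budding yeast, 425 (9.7%) were enriched for exactly 1 factor, and these single-factor regions are described here. Each factor was profiled once by calling cards, in which the factor carries a tag that directs a transposon to insert near the sites the factor occupies. A region counted as enriched in a library when it held at least 8 insertions and its share of that library was at least 2 times its share of a background set of insertions, and it was kept when this held in 1 of the 12 libraries. A further 275 regions (6.27%) were enriched in 2 or more libraries and 3683 in none. The insertion counts of the 12 libraries chose the members, so those counts are given below as a description and carry no test.

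The 12 factors were Gal4, Leu3, Yrm1, Yrr1, Tea1, Lys14, Cat8, Cha4, Put3, Urc2, Hal9 and Aro80. Each strain, labelled BY4741, lacked SIR4 and the chromosomal gene of the factor under study, and carried that factor fused to Sir4 on a plasmid, driven by the ADH1 promoter rather than its own. A second plasmid held the Ty5 retrotransposon under the inducible GAL1/10 promoter. Another 4 libraries, which the choice of members did not use, held the Gal4 fusion in strains that lacked SIR4, GAL4 and 1 more gene: HMO1 (labelled BY4742), LEU3 (BY4743), SEF1 (BY4744) or YRM1 (BY4745). These are called Gal4 hmo1Δ, Gal4 leu3Δ, Gal4 sef1Δ and Gal4 yrm1Δ below, and in them the deletion and the strain label cannot be told apart. The strain names run in the order of the libraries and were not checked against another source, so a true difference in strain is not established.

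The factors belong to the zinc cluster family of fungi, whose members bind DNA through a pair of zinc ions held by cysteines and commonly recognise CGG triplets, often as dimers. Many control the use or synthesis of a nutrient: Gal4 activates galactose genes, Leu3 branched-chain amino acid synthesis, Lys14 lysine synthesis, Put3 proline use, Cha4 serine and threonine breakdown, Aro80 the breakdown of aromatic amino acids and Cat8 growth on non-fermentable carbon. Yrm1 and Yrr1 act on multidrug resistance genes.

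The factor libraries held between 18295 (Cha4) and 36063 (Leu3) insertions, and the Gal4 libraries with a further deletion between 6932 (hmo1Δ) and 13882 (sef1Δ). With 1 library in each group there is no replicate error, and every interval is a 95% interval for counting error alone. The background held 84109 insertions in 15 tables and 103922 in the Gal4 table, and the 15 libraries share theirs. The library labelled Gal4 leu3Δ stood apart from the other Gal4 libraries: at GAL10/GAL1 it had 1 insertion, against 206 in hmo1Δ, 282 in sef1Δ, 289 in yrm1Δ and 850 in Gal4, and over the 61 regions enriched for Gal4 and another factor its pooled fold was 0.961 (0.849 to 1.085), against 12.8 (12.3 to 13.3) in Gal4. Results from it are therefore given apart. A region takes the names of its left and right flanking gene. Positions are printed as deposited for the Leu3 library, in the sacCer2 build according to the submitters' processing notes. The Gal4 library was deposited with other region edges, so a Gal4 count may cover a stretch unlike the printed one.

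Single-factor regions made up very different parts of what each factor used. In the Tea1 library, 57 of 135 enriched regions were single-factor. Put3 had 52 of 101, Aro80 44 of 100, Leu3 42 of 118, Lys14 39 of 70, Cat8 38 of 101 and Urc2 37 of 103. Yrr1 had 29 of 105, Hal9 27 of 128, Yrm1 24 of 135, Gal4 22 of 83 and Cha4 14 of 35. This order rests on the minimum of 8 insertions: with a minimum of 5, Put3 had 91, Urc2 77 and Tea1 54, and with a minimum of 16, Put3 had 14, Urc2 13 and Tea1 50. As a share of each library's enriched regions, Lys14 (55.7%) and Put3 (51.5%) were highest and Yrm1 (17.8%) and Hal9 (21.1%) lowest, with 35.0% over the 1214 pairs of an enriched region and a library. The Yrm1 share was 37.8% without the Yrr1 library, the Yrr1 share 53.3% (27.6% with all libraries) without the Yrm1 library, and the Put3 share 38.9% with a minimum of 16 insertions, so these places in the order are not fixed. Enriched regions were 3.08% of all regions for Tea1 and for Yrm1, 2.92% for Hal9, 2.69% for Leu3, 2.4% for Yrr1, 2.35% for Urc2, 2.3% for Cat8 and for Put3, 2.28% for Aro80, 1.89% for Gal4, 1.6% for Lys14 and 0.799% for Cha4. These background shares belong to the counts that chose the members, so nothing further is read from them.

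**Figure D1:**
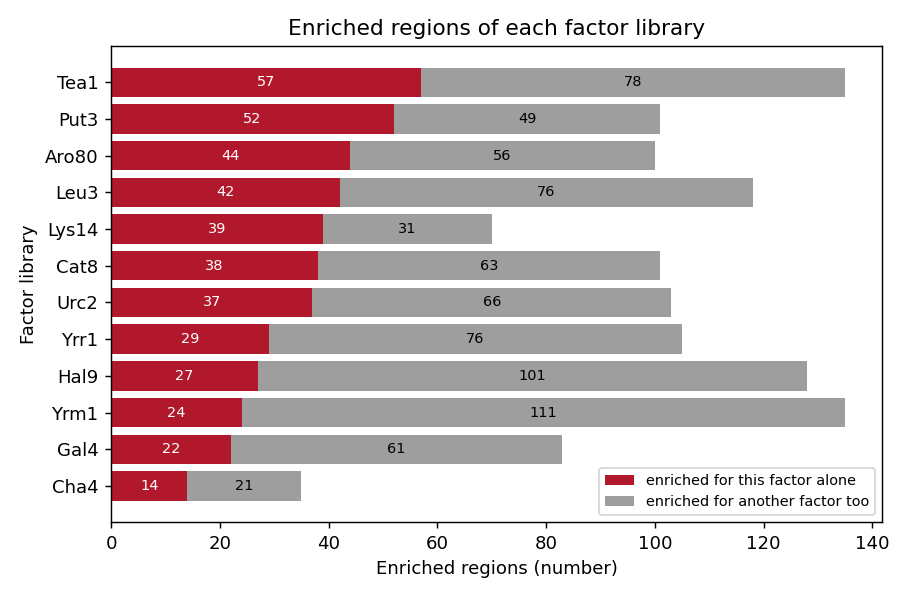
Horizontal bars give the number of enriched regions in each of the 12 factor libraries, red for regions enriched for that factor alone and grey for regions enriched for another factor too. At this minimum of 8 insertions Tea1 had 57 single-factor regions and Cha4 14, while Yrm1 and Hal9 had 111 and 101 shared ones.

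By weight of insertions the order was another. Single-factor regions took 11.8% of all insertions in the Aro80 library, against 13.5% in its shared enriched regions, and 11.1% against 7.72% for Lys14. For Yrm1 they took 2.04%, against 40.2% in shared regions, for Yrr1 2.56% against 45.4%, and for Gal4 7.70% against 36.3%. Lys14 was thus the library whose single-factor regions outweighed its shared ones. Put3 placed 3.86% of its insertions there and 9.11% in shared regions.

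Most single-factor regions were weak, and a minority were among the most used sites of their factor. Members held 8 to 1095 insertions in their own library (median 18), with a fold over background of 2.01 to 335 (median 3.82). The fold was below 5 in 263 members, from 5 to below 10 in 88 and 10 or more in 74, and the lower bound of its interval lay above 2 in 189. As many as 132 members held only 8 to 12 insertions, and 51 held 100 or more. The highest fold among the other 11 libraries had a median of 1.63 and was 2 or more in 88 members, where that other library held fewer than 8 insertions. In 220 members no other library reached a fold of 1.5 with at least 5 insertions.

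The edge of the definition was narrow. Just inside stood DUS3/SFP1 with 10 Cat8 insertions (2.01-fold), RPS4A/HMS2 with 67 Tea1 insertions (2.01-fold) and ESC2/SEM1 with 21 Aro80 insertions (2.01-fold). Just outside stood PUF3/YEH1 with 14 Tea1 insertions (1.999-fold), PKR1/STO1 with 15 Leu3 insertions (1.999-fold) and HHT2/HHF2 with 19 Cat8 insertions (1.99-fold). The smallest next fold of all members was 0, at VAC17/MRC1 (Cha4), WSS1/YCK1 (Aro80) and ISN1/NFI1 (Leu3), where each of the other 11 libraries held 0 insertions.

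By gene orientation, which the definition did not use, single-factor regions looked much like shared enriched regions and unlike the rest. No flanking gene started toward the region, so that it held no promoter of either, in 8.0% of single-factor regions, against 3.64% of shared and 29.3% of unenriched regions. One promoter was held by 56.5%, against 58.2% and 46.9%, and promoters of both neighbours by 35.5%, against 38.2% and 23.8%. Their median length was 751 bp, against 948 bp for shared and 376 bp for unenriched regions. Median background insertions were 14, against 28 and 5. A minimum of insertions is met more easily in long, much used regions, and that part of the difference was not tested.

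**Figure D2:**
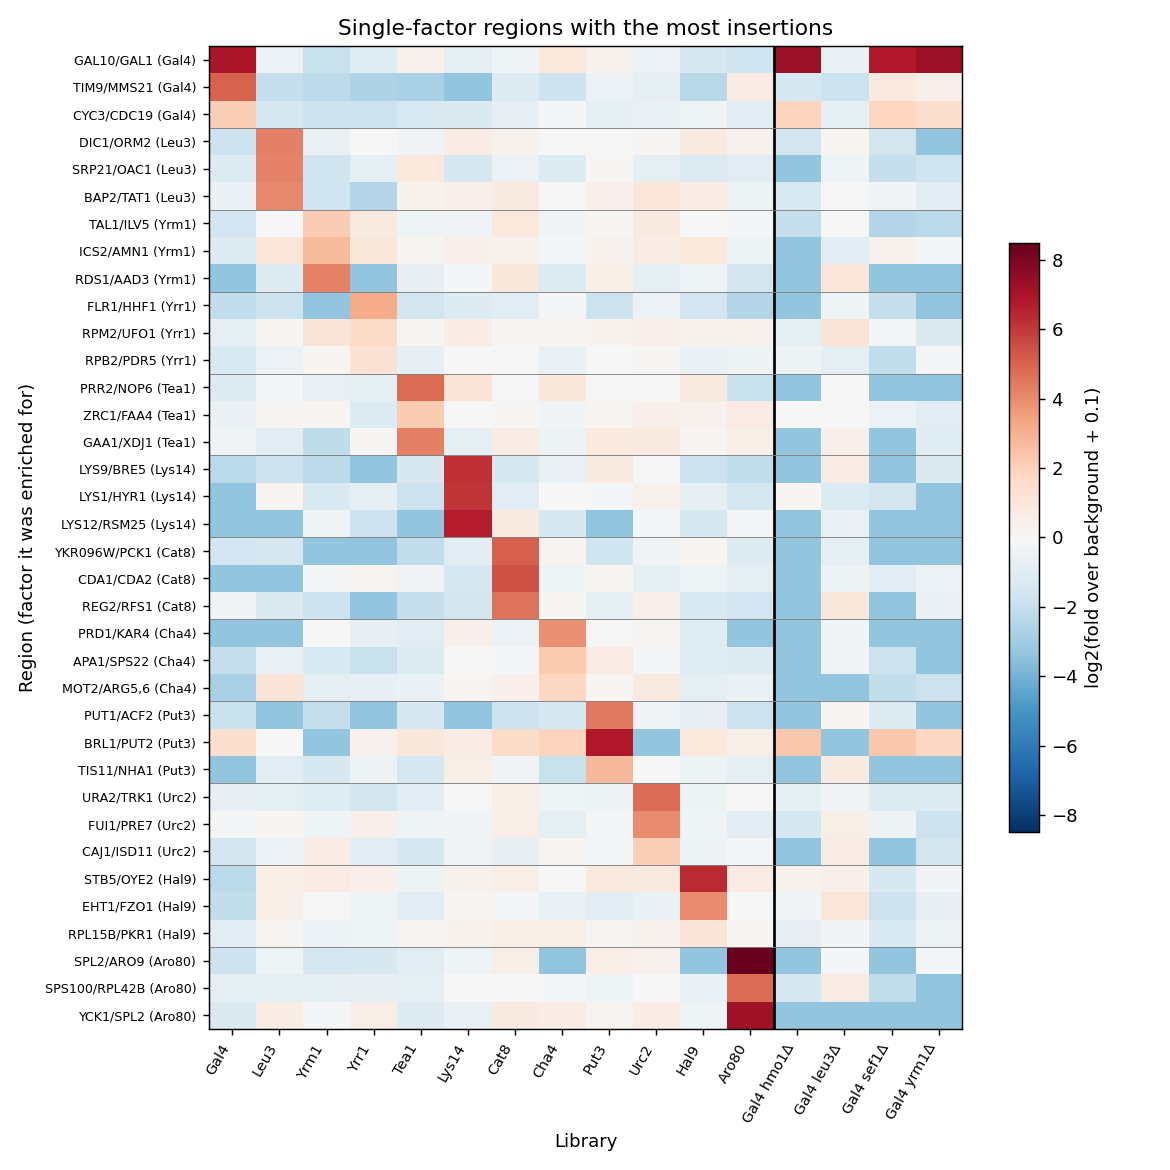
The colour gives log2(fold over background + 0.1) for the 3 single-factor regions with the most insertions of each factor (rows, with the factor in brackets) in the 12 factor libraries and, right of the black line, the 4 Gal4 libraries with a further deletion. The red cells run down the diagonal because the members were chosen that way; right of the line, GAL10/GAL1 is red for hmo1Δ, sef1Δ and yrm1Δ but not for leu3Δ.

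Among regulators of amino acid metabolism, Lys14 had the clearest set. LYS12, the gene of homoisocitrate dehydrogenase (LYS12/RSM25, chromosome IX 187632 to 187990), held 454 Lys14 insertions, against 0 to 7 (median 1) in the other 11 libraries, a fold over background of 104 (64.2 to 193). LYS9, encoding saccharopine reductase (LYS9/BRE5, chromosome XIV 715388 to 716780), held 522, against 0 to 11 (median 2), a fold of 75.4 (51.1 to 121). LYS1, encoding the saccharopine dehydrogenase of the last step (LYS1/HYR1), held 492, against 0 to 12 (median 3). LYS4, encoding homoaconitase (RTN1/LYS4), held 145, against 1 to 20 (median 9), a fold of 9.08. In each of these 4 the Lys14 count lay far above every other library. Outside the lysine list, Lys14 alone was enriched at KEX1/ARO8 (85 insertions, 8.71-fold, 5.88 to 13.6), which holds the promoter of an aromatic aminotransferase gene. DAL7/DAL3, between genes of allantoin breakdown, held 43 (23.4-fold, 10.7 to 72.9) and PEX25/CAR1, with the arginase gene CAR1, held 123 (6.08-fold). Around LYS1/HYR1, 3 of the 24 regions within 50 kb were Lys14-only, the nearest at 6.06 kb. Whether DAL7/DAL3 has a Lys14 binding site apart from LYS1 was not tested.

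Lysine genes were also divided between single-factor and shared regions. Of the 8 regions in the lysine list, 4 were Lys14-only and 3 were enriched for Lys14 and another factor. At LYS2 the other factors were Urc2 and Hal9 (3.43-fold and 2.87-fold, against 152-fold for Lys14). At LYP1, the lysine permease gene, it was Urc2 (2.09-fold, against 54.9-fold), and at LYS21, a homocitrate synthase gene, it was Leu3 (2.59-fold, against 17.7-fold). Each of these 3 regions had a higher Lys14 fold than LYS4, the weakest of the 4 Lys14-only ones in the list.

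Leu3 stood alone at 5 of the 13 regions in the branched-chain amino acid list. BAP2, a branched-chain amino acid permease gene (BAP2/TAT1), held 289 Leu3 insertions, against 1 to 25 (median 13) in the other libraries, a fold of 17.1 (12.3 to 24.8). The dihydroxyacid dehydratase gene ILV3 (ILV3/ESS1) held 122, against 0 to 13 (median 4), a fold of 14.6. The mitochondrial transaminase gene BAT1 was at 7.21-fold and GDH1, a glutamate dehydrogenase gene, at 6.34-fold. OAC1, which encodes a mitochondrial oxaloacetate carrier (SRP21/OAC1, chromosome XI 212998 to 217344), held 314, against 3 to 29 (median 5), a fold of 18.5. The Leu3-only region with the most insertions lay outside the list: DIC1/ORM2 (chromosome XII 827873 to 828730), between the genes of a mitochondrial dicarboxylate carrier and a regulator of sphingolipid synthesis, held 425, against 4 to 21 (median 16), a fold of 19.6 (14.8 to 27.1). PHO4/CDC26 followed with 197 insertions (8.43-fold) and UBC4/TEC1 with 187 (2.60-fold), and PAN5/SSZ1 had a high fold on few insertions (34, 17.6-fold, 7.07 to 76.9). A further 2 regions in the list were single-factor for others: ILV1, the threonine deaminase gene, for Cha4, and the permease gene BAP3 for Hal9 (50 insertions, 2.69-fold).

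Aro80 gave the strongest member of all. SPL2/ARO9 (chromosome VIII 375100 to 375709), which holds the promoter of the aromatic aminotransferase gene ARO9, had 1095 Aro80 insertions, against 0 to 4 (median 2) in the other 11 libraries, a fold of 335 (191 to 736). Its neighbours were single-factor too: YCK1/SPL2 with 282 insertions (139-fold, 68.5 to 415), ARO9/SPS100 with 241 (81.5-fold), SPS100/RPL42B with 395 (27.3-fold) and NSG1/WSS1 with 51 (109-fold, 28.1 to 6598). The promoter of ARO80 itself (HKR1/ARO80, chromosome IV 1311675 to 1312040) held 66, against 0 to 2 (median 0), a fold of 38.6 (17.3 to 135). ARO10/YRA1, next to the phenylpyruvate decarboxylase gene ARO10 on its far side, held 185 (44.0-fold). Of the 15 regions in the aromatic amino acid list, 2 were Aro80-only (ARO9 and ARO80), 1 was Lys14-only (ARO8) and 11 were enriched in no library.

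Few single-factor regions reached a fold of 10 for Put3 (4) and Cha4 (3), as for Urc2 (4), Hal9 (3) and Yrm1 (2). PUT2, encoding the second enzyme of proline breakdown (BRL1/PUT2, chromosome VIII 181760 to 181977), held 79 Put3 insertions, against 0 to 3 (median 1), a fold of 112 that rests on 2 background insertions (37.4 to 1174). PUT1/ACF2, behind the proline oxidase gene PUT1, held 110, against 0 to 4 (median 1), a fold of 22.2. The other Put3-only regions reached 52 insertions at TIS11/NHA1 (6.69-fold, 7.43 kb from RRN5/PUT1), 48 at CCW12/HOG1 (2.81-fold) and 37 at RAX1/YOR302W (2.65-fold). Of the 52 Put3-only regions, 28 held 8 to 12 insertions. For Cha4, GET2/ILV1 with the threonine deaminase gene held 33 insertions, against 0 to 4 (median 1), a fold of 8.20 (4.61 to 15.9). PRD1/KAR4 held 37 (14.8-fold), APA1/SPS22 34 (4.53-fold), MOT2/ARG5,6 33 (3.33-fold) and MRC1/KRR1 25 (25.5-fold, 9.92 to 114). VAC17/MRC1 held 18 with a background of 0, at least 27.6-fold higher than a floor of 3 background insertions. PRD1/KAR4, APA1/SPS22, MRC1/KRR1 and VAC17/MRC1 lay 10.3, 23.4, 5.18 and 1.60 kb from CHA1/VAC17, the region with the most Cha4 insertions.

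In carbon metabolism, Gal4 stood alone at GAL10/GAL1 (chromosome II 278352 to 279021), the divergent promoter of the galactokinase and epimerase genes, with 850 insertions, against 1 to 8 (median 3) in the other 11 libraries, a fold of 122 (81.3 to 203). The Ty5 plasmid carries a promoter of the same name, per the labels. The promoters of GAL80, the Gal4 inhibitor (60 insertions, 6.28-fold), PGM2, phosphoglucomutase (49, 5.31-fold), GCY1 (122, 4.46-fold) and MTH1 (41, 2.28-fold) were Gal4-only as well. These were 5 of the 9 regions in the galactose list, and the other 4 were enriched for Gal4 and at least 1 more factor. GAL2 was shared with Cat8 (68 insertions, 5.03-fold, against 1781 and 74.8-fold for Gal4), as was GAL7/GAL10 (26 insertions, 2.44-fold, against 1410 and 102-fold). TIM9/MMS21 (chromosome V 117474 to 120498) came second with 447 insertions, against 0 to 22 (median 2), a fold of 31.7; neither flanking gene starts toward it, and it spans RPR1, the RNA gene of nuclear RNase P, and PXP1. CYC3/CDC19 (172, 4.17-fold), RHO5/RPS3 (142, 3.76-fold) and TAH1/BUD31 (128, 5.69-fold) followed.

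Cat8 alone was enriched at 7 of the 16 regions listed for non-fermentable carbon, and shared 8 with other factors. PCK1, encoding phosphoenolpyruvate carboxykinase of gluconeogenesis (YKR096W/PCK1, chromosome XI 630380 to 631152), held 167 Cat8 insertions, against 0 to 4 (median 2), a fold of 33.5 (20.9 to 60.7). CDA1/CDA2, by the chitin deacetylase genes of spore wall formation, also held 167 (43.5-fold), against 0 to 5 (median 2). REG2, for a subunit of protein phosphatase 1, was at 24.2-fold, the acetate transporter gene ADY2 at 14.1-fold (14 insertions), the cytosolic isocitrate dehydrogenase gene IDP2 at 9.51-fold, the acetyl-CoA synthetase gene ACS1 at 5.42-fold, SIP4 at 3.67-fold and the alcohol dehydrogenase gene ADH2 at 2.61-fold. At ADY2, Urc2, Hal9, Yrm1, Lys14 and Put3 also had folds of 2.02 to 4.38, on 2 to 5 insertions, below the minimum of 8. PRO3/YAT2, with a carnitine acetyltransferase gene, held 13 on a background of 1 (30.5-fold, 6.86 to 1941). The remaining listed region, ICL2/REC8, was Leu3-only with 8 insertions (4.15-fold, 1.25 to 21.2).

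Urc2, linked to uracil breakdown, had 2 single-factor regions far above its others, both at pyrimidine genes. URA2/TRK1 (chromosome X 172367 to 173599), upstream of the gene whose enzyme starts pyrimidine synthesis, held 432 Urc2 insertions, against 4 to 18 (median 9), a fold of 27.3 (20.4 to 38.0). The uridine permease gene FUI1 (FUI1/PRE7, chromosome II 140260 to 141247) held 246, against 5 to 20 (median 12), a fold of 16.2. The third, CAJ1/ISD11, held 47 (4.17-fold), and RNR4/TIM13, with a ribonucleotide reductase gene, 41 (2.04-fold). Another 3 of the 17 pyrimidine regions were single-factor for other factors: URA5 for Lys14 (15 insertions, 4.61-fold), FCY2 for Tea1 (61, 2.10-fold) and DCD1 for Aro80 (26, 6.68-fold). The DCD1 region lies 14.1 kb from SPL2/ARO9, and whether it has an Aro80 binding site of its own was not tested.

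Yrr1 and Yrm1 had 29 and 24 regions to themselves, more than Gal4 (22) and Cha4 (14). Among the 29 Yrr1-only regions Yrm1 was the next library in 12. Among the 24 Yrm1-only regions Yrr1 was next in 3, against 6 for Cat8 and 4 for Urc2. The strongest Yrr1-only region was FLR1/HHF1 (chromosome II 254209 to 255373) with the drug transporter gene FLR1, which held 115 insertions, against 0 to 8 (median 3) in the other libraries, a fold of 8.65 (6.04 to 12.9). The drug pump gene PDR5 (RPB2/PDR5) held 69, against 11 to 35 (median 23), only 2.19-fold over background. YRR1 itself held 15 on a background of 2 (17.8-fold, 5.18 to 201). RPM2/UFO1 was near the edge, with 78 Yrr1 insertions (3.03-fold) and 57 Yrm1 insertions (1.998-fold). For Yrm1, RDS1/AAD3 (chromosome III 313456 to 313890) stood out with 94 insertions, against 0 to 7 (median 2), a fold of 18.7 (10.8 to 37.8), and it lies next to RDS1, the gene of another zinc cluster factor. TAL1/ILV5 held 129 (4.35-fold), ICS2/AMN1 94 (6.23-fold), SVL3/PHO85 50 (3.01-fold) and PHO84/GTR1, with a phosphate transporter gene, 39 (2.79-fold). In the drug resistance list of 23 regions, 4 were Yrr1-only or Yrm1-only (FLR1, PDR5 and YRR1 for Yrr1, QDR1 for Yrm1 with 11 insertions and 5.36-fold), 12 were shared and 6 were enriched in no library.

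For Hal9, single-factor regions were not gathered in the pathway list assigned to it, and Tea1 had no such list to be set against. Tea1 held 226 insertions at PRR2/NOP6 (chromosome IV 76545 to 77289), against 1 to 11 (median 5), a fold of 27.3 (17.5 to 47.4). Across the gene PRR2, the shared region GDH2/PRR2 held 388 Tea1 insertions (73.1-fold) and was enriched for Cat8 and Put3 too. TFC7/CEX1 had 169, against 0 to 7 (median 1), a fold of 41.9 (22.8 to 98.4), and GAA1/XDJ1, which spans the alanine transaminase gene ALT1, had 180 (19.7-fold). ZRC1/FAA4 had 206 (4.35-fold) and BMH2/TVP15 118 (15.03-fold). Tea1-only regions also held promoters of the G1 cyclin gene CLN1 (112 insertions, 4.67-fold), the purine synthesis gene ADE12 (95, 3.89-fold), the glycolytic genes TDH1 (66, 3.14-fold) and PFK2 (63, 2.14-fold) and the nitrogen regulator gene URE2 (22, 4.15-fold). Hal9 had 1 dominant member, OYE2, an NADPH dehydrogenase gene (STB5/OYE2, chromosome VIII 461530 to 462502), with 392 insertions, against 1 to 13 (median 9), a fold of 81.8 (54.0 to 137). EHT1/FZO1 followed with 111 (15.8-fold) and PRY3/ICS3 with 42 (4.65-fold). None of the 10 regions in the sodium and cation transport list was Hal9-only.

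Over the 10 pathway lists, assigned to the factors other than Tea1, 39 of 131 regions (29.8%) were single-factor and 42 (32.1%) were shared. Of the 3260 regions with a promoter, 12% were single-factor and 8.13% shared. In 12 lists of other processes, 41 of 190 regions (21.6%) were single-factor and 26 (13.7%) shared. In the pathway lists, 31 of the 39 single-factor regions were enriched for a factor of that list. Among the other lists, iron uptake had 4 of 13 single-factor regions and glycolysis 5 of 19. Citric acid cycle genes with a single-factor region included KGD1 and SDH1 for Cat8, SDH4 for Tea1 and FUM1 for Gal4. At SDH4, Cha4, Urc2, Leu3 and Aro80 also had folds of 2.86 to 4.09, on 4 to 6 insertions. Heat shock genes had 2 of 18 and hexose transport 2 of 16, close to the share over all promoter regions.

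Single-factor regions lay near a strongly used region of their own factor more often than shared ones, although most lay more than 50 kb from any, and both the members and the strongly used regions come from the same counts. The 3 regions with the most insertions in a library are called its top regions here, and 7 members are top regions themselves. Of the other 418 members, 81 (19.4%) lay within 50 kb of a top region of the same library, against 54 of 760 (7.11%) of the shared enriched regions and a mean of 2.26% of all regions. The share exceeded that of all regions in 12 of 12 factors and that of the shared enriched regions in 11 of 12, the exception being Cat8 (5.26% of members and 10% of shared enriched regions). It was highest for Cha4 (8 of 14 members, 57.1%), Aro80 (21 of 42, 50%) and Put3 (14 of 51, 27.5%), and without these 3 factors it was 12.2% (38 of 311).

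The members near ARO9 make up the longest run. Of the 44 Aro80-only regions, 20 lay on chromosome VIII, which holds 4.59% of all regions, and 13 on chromosome IV, the chromosome of ARO10 and ARO80. Around SPL2/ARO9, 18 of the 46 regions within 50 kb were Aro80-only, at 0.922 to 47.6 kb, and the median Aro80 fold of these 46 was 5.20, against 0 for the median over other factors. For Put3, 17 of 52 members lay on chromosome XII, and 11 of the 28 regions within 50 kb of RRN5/PUT1 were Put3-only, with a median Put3 fold of 4.72. For Cha4, 6 of 14 lay on chromosome III, all among the 18 regions within 50 kb of CHA1/VAC17, where the median Cha4 fold was 3.07. These medians include regions with very few insertions: at RMP1/SPE4, 1 Put3 insertion gave a fold of 7.08. Pooled by distance from the 3 top regions of each factor, the fold from 20 to 50 kb was 1.96 for Aro80, 1.58 for Put3 and 1.40 for Cha4. Long runs were not the rule: 4 of the 36 top regions had 10 or more single-factor regions of their factor within 50 kb. These 4 were neighbouring pairs, RRN5/PUT1 with PUT1/ACF2 and SPL2/ARO9 with SPS100/RPL42B. Around 10 others, in 8 factors, no single-factor region of that factor lay within 50 kb. Those 10 included MMF1/PCL7 of Cha4, URA2/TRK1 of Urc2, STB5/OYE2 of Hal9 and SRP40/PTR2 of Gal4.

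**Figure D3:**
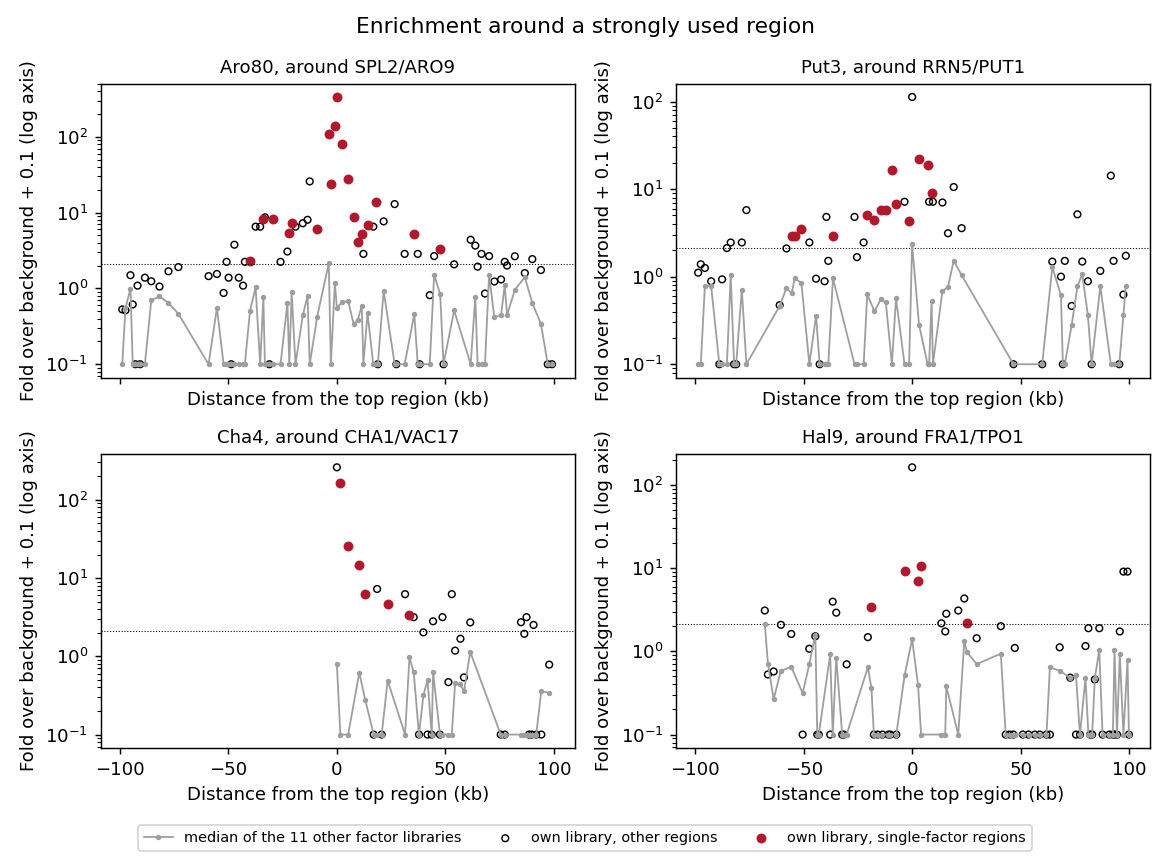
Each panel plots the fold over background (plus 0.1, log axis) against the distance in kb from 1 top region: SPL2/ARO9 for Aro80, RRN5/PUT1 for Put3, CHA1/VAC17 for Cha4 and FRA1/TPO1 for Hal9. Red points are single-factor regions and open points other regions in the own library, the grey line is the median of the 11 other factor libraries, and the dotted line marks a fold of 2. Own folds are high around the first 3 regions, in part on few insertions, while the grey line stays low. Around FRA1/TPO1 the high points lie closer in.

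Pooled over all regions, enriched or not, own-library insertions fell off with distance from the top regions. Leaving out the top regions, the pooled fold in the own library had a median over the 12 factors of 3.52 within 10 kb, 1.51 from 10 to 20 kb, 1.20 from 20 to 50 kb, 0.861 from 50 to 100 kb and 0.997 farther away or on other chromosomes. In the other factor libraries without Gal4, the same regions were at 0.805, 0.882, 1.07, 1.13 and 1.14. Within 10 kb the own fold was the higher one in 12 of 12 factors, from 1.63 (Leu3) to 18.2 (Aro80), and from 10 to 20 kb in 8 of 12. For Gal4, 850 of the 1029 insertions within 10 kb lay at GAL10/GAL1. The median Gal4 fold within 50 kb of its 3 top regions was 0.158, 0.317 and 0, against 0.283, 0.498 and 0 over other factors. Among all regions, 22.0% of regions within 10 kb were single-factor for that library, 5.26% from 10 to 20 kb, 2.95% from 20 to 50 kb, 0.696% from 50 to 100 kb and 0.655% beyond. The top regions were picked from the same insertions, and whether a nearby member has a binding site of its own was not tested.

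**Figure D4:**
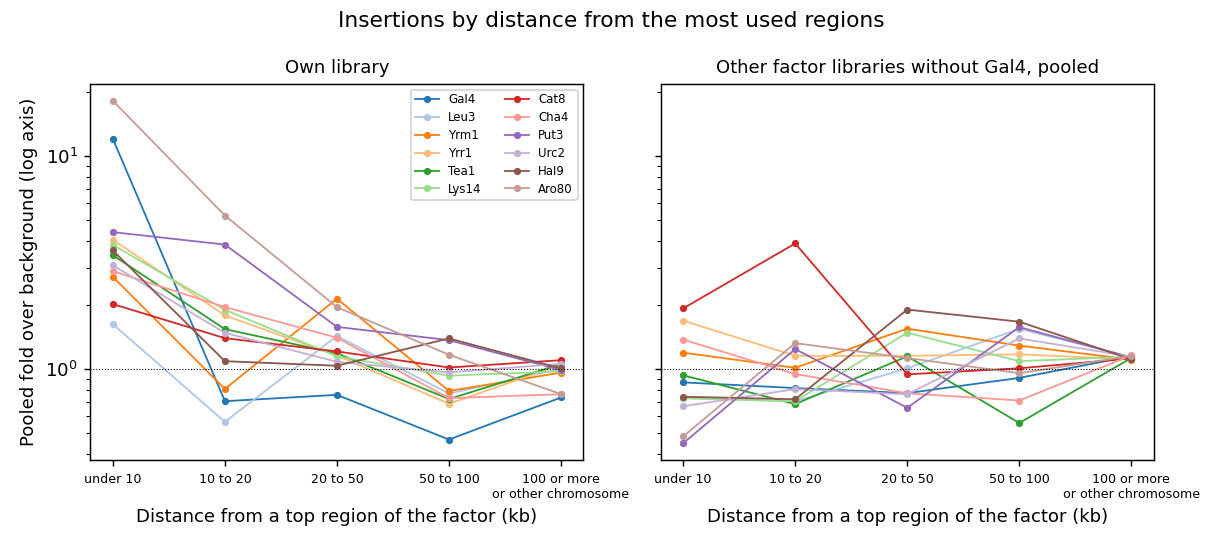
Lines give the pooled fold over background (log axis) of all regions, top regions left out, by distance in kb from a top region of each factor, on the left in that factor's own library and on the right in the other factor libraries without Gal4. On the left most lines start between 1.63 and 4.40, with Aro80 at 18.2 and Gal4 at 12.1, and come down to about 1. Of the 1029 Gal4 insertions within 10 kb, 850 lay at GAL10/GAL1. On the right the lines show no common fall.

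The Gal4-only regions could be followed in 4 libraries that had no part in choosing them. Regions were matched by gene names, and Gal4 was deposited with other region edges, so counts set against Gal4 may cover unlike stretches. Pooled over the 22 regions, the fold over background was 7.12 (6.32 to 8.02) in Gal4 hmo1Δ, 7.03 (6.37 to 7.76) in Gal4 sef1Δ and 7.31 (6.58 to 8.12) in Gal4 yrm1Δ, and 0.931 (0.730 to 1.17) in the library labelled Gal4 leu3Δ. In the Gal4 library that chose them it was 8.95. Without the 5 galactose regions it was 3.51 (2.94 to 4.17) in hmo1Δ, 5.09 (4.50 to 5.74) in sef1Δ and 4.62 (4.02 to 5.29) in yrm1Δ, against 6.70 (6.11 to 7.35) in Gal4. That Gal4 value leans on 1 region: 447 of the 1470 Gal4 insertions lay at TIM9/MMS21, which held 1, 13 and 7 in hmo1Δ, sef1Δ and yrm1Δ. No pooled fold was taken without that region, so a general gap to Gal4 is not shown. The intervals of the 3 deletion libraries overlap over all 22 regions, while without the galactose regions those of hmo1Δ and sef1Δ do not. The 403 regions that were single-factor for another factor were at 0.338 (0.296 to 0.385), 0.414 (0.380 to 0.450), 0.337 (0.302 to 0.375) and 1.02 (0.954 to 1.089) in hmo1Δ, sef1Δ, yrm1Δ and leu3Δ. These regions, chosen as not enriched for Gal4, were at 0.323 in Gal4. Regions enriched in no factor library were at 0.202, 0.212, 0.185 and 1.08 in the same order of deletion libraries.

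Counted by region, 11 of the 22 (50%) passed the enrichment rule in hmo1Δ, where 1.51% of all regions did. In sef1Δ 18 passed (81.8%, against 2.17% of all regions), in yrm1Δ 13 (59.1%, against 1.83%) and in leu3Δ 0 (against 0.479%). Of the 403 other single-factor regions, 4 (0.993%) passed in each of hmo1Δ, sef1Δ and yrm1Δ and 2 (0.496%) in leu3Δ. The 3 libraries with enrichment differ in depth, so the counts are not ranked. Of the 22 regions, 9 passed in all of hmo1Δ, sef1Δ and yrm1Δ, 6 in 2 of them, 3 in 1 and 4 in none.

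**Figure D5:**
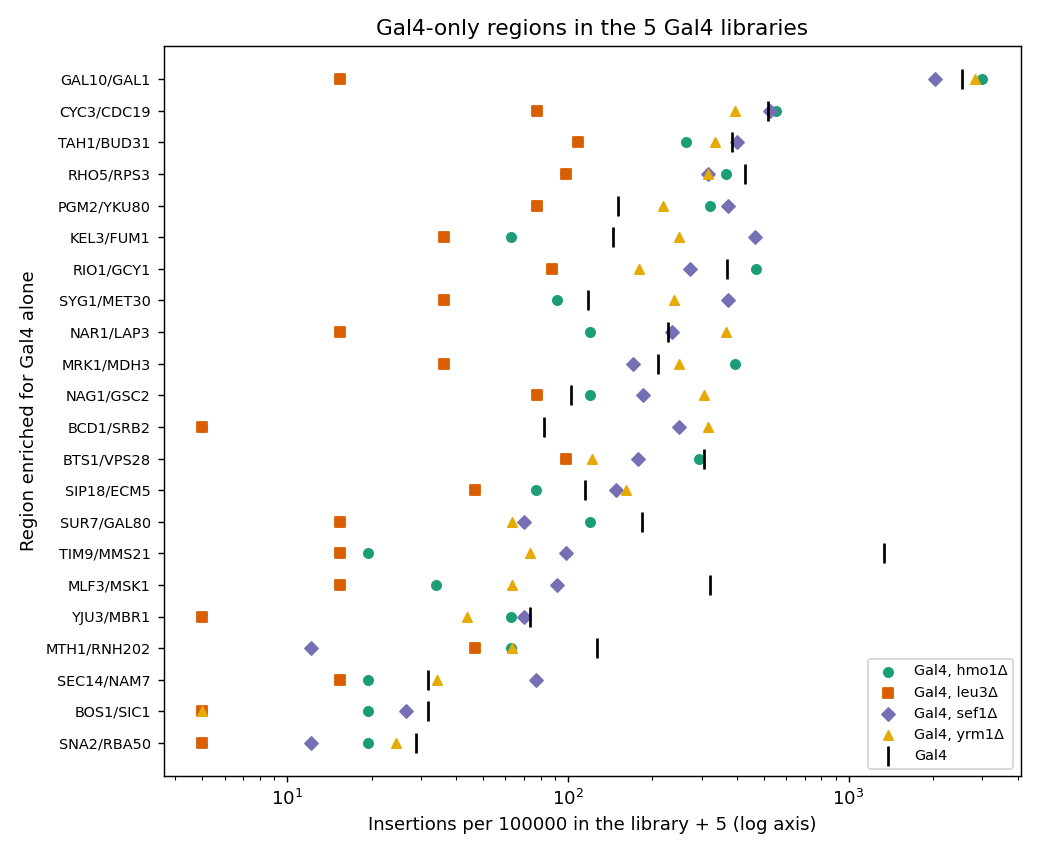
For each of the 22 Gal4-only regions, points give insertions per 100000 of the library (plus 5, log axis) in Gal4 hmo1Δ (circle), leu3Δ (square), sef1Δ (diamond) and yrm1Δ (triangle), and the black stroke gives the Gal4 library that chose them. Most points lie near the stroke except the leu3Δ squares; TIM9/MMS21 is far to the left of its stroke in all 4 libraries.

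Over the 4 deletion libraries together, GAL10/GAL1 had the most insertions, with 206 insertions in hmo1Δ (161-fold), 282 in sef1Δ (110-fold) and 289 in yrm1Δ (153-fold), against 850 in Gal4 (122-fold). PGM2/YKU80 had 22, 51 and 22 in the same order, at 13.0-fold, 15.1-fold and 8.78-fold, against 49 in Gal4 (5.31-fold), and 7 in leu3Δ (2.98-fold). CYC3/CDC19 had 38, 72 and 40 (3.64-fold, 3.45-fold and 2.59-fold), against 172 in Gal4 (4.17-fold). TAH1/BUD31 had 18, 55 and 34 (3.87-fold, 5.90-fold and 4.92-fold), against 128 in Gal4 (5.69-fold). RHO5/RPS3 had 25, 43 and 32 (2.88-fold, 2.47-fold and 2.48-fold), against 142 (3.76-fold). All 5 passed the rule in hmo1Δ, sef1Δ and yrm1Δ.

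A few regions were picked out after their values were seen, and here too the edges used for Gal4 may differ. TIM9/MMS21, second in the Gal4 library with 447 insertions (31.7-fold), had 1 in hmo1Δ (0.261-fold), 13 in sef1Δ (1.69-fold), 7 in yrm1Δ (1.23-fold) and 1 in leu3Δ (0.188-fold). MLF3/MSK1 had 2 in hmo1Δ (1.94-fold), 12 in sef1Δ (5.82-fold, past the rule), 6 in yrm1Δ (3.93-fold) and 1 in leu3Δ (0.699-fold), against 106 in Gal4 (24.3-fold). In the other direction, KEL3/FUM1, with the promoter of the fumarase gene, had 64 in sef1Δ (10.9-fold) and 25 in yrm1Δ (5.76-fold) but 4 in hmo1Δ (1.37-fold), against 47 in Gal4 (4.09-fold). SYG1/MET30 had 51 in sef1Δ (10.5-fold), 24 in yrm1Δ (6.66-fold) and 6 in hmo1Δ (2.47-fold), against 38 in Gal4 (2.58-fold). BCD1/SRB2, a short gap with no promoter of either neighbour, had 34 in sef1Δ and 32 in yrm1Δ, at least 68.7-fold and 87.3-fold higher than a floor of 3 background insertions, and 0 in hmo1Δ, against 26 in Gal4. MTH1/RNH202, BOS1/SIC1 and SNA2/RBA50, at 2.28-fold, 2.65-fold and 2.91-fold in Gal4, passed in none of the deletion libraries. BOS1/SIC1 was at 4.04-fold in sef1Δ and 2.70-fold in hmo1Δ, on 3 insertions and 1, so there it failed the minimum of 8 insertions and not the fold.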

How the data were processed

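Calling-card insertions were analysed for 16 libraries, 1 per group, grouped by the labels into 12 factor libraries and 4 Gal4 libraries with a further deletion. Per the labels' protocols, 3 restriction digests preceded the inverse PCR that recovered the sites, and Novoalign and the sacCer2 build are named in the submitters' processing notes. The authors deposited, per the file headers, counts of insertions in the library and in a background set for each region between neighbouring genes, the fraction each count makes of its total, and a hypergeometric p-value, which was used only as an alternative.

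A region was kept where all tables gave it the same left and right gene, whatever its edges, which left 4383. Totals were the count divided by the deposited fraction at the region with the most insertions. The fold over background divides the region's share of library insertions by its share of background insertions, after adding 0.5 to the background count. Intervals (95%) are exact conditional binomial intervals of the ratio without that addition. PCR without molecular tags recovered the insertions, so intervals cover counting error only, and a fold against a background of 0 was set against a floor of 3 insertions per region. Pooled folds are ratios of sums. The Gal4 table has its own background and was left out where libraries were pooled as a comparison. One insertion was worth 2.77 (Leu3) to 14.4 (hmo1Δ) per 100000.

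Gene order and names came from an R64 gene table, matched for 4381 regions, and promoters were counted from the strand letter of systematic names. Regions named are, per factor, the 5 with the most insertions or the highest fold, those at promoters of 22 gene lists, those at the fold threshold and those with the lowest next fold. From these the text gives a selection, and 1 region is not reported here. The members, lists and comparisons were chosen with earlier results of these data known. On simulated data, the intervals were checked, as was the recovery of raised regions with well-filled backgrounds. False single-factor calls were not counted there, so the check does not cover the weak members. Calculations used Python 3.11.15, numpy 2.4.6, pandas 2.3.3 and scipy 1.17.1, and figures matplotlib 3.10.9. Alternatives covered the minimum of insertions, the fold, the added background, totals, background set, depth, the authors' p-value, crowded regions, strictness, distance and each library left out in turn.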

Additional observations from a re-analysis of the deposited data

How the results depend on the processing

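The total of 425 single-factor regions became 280 with a minimum of 16 insertions and 220 when no other library could reach a fold of 1.5 with 5 insertions. In the same order the median per factor, 37.5, became 21.5 and 20. Under the other settings the total stayed within 1.5 times, from 320 without the 10% most crowded regions by background to 578 with a minimum of 5. The authors' p gave 335, of which 251 were the same region for the same factor (59.1% of the 425), and libraries thinned to 18295 insertions gave 355 (281 the same, 66.1%).

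The share of enriched regions used by 1 factor, 35.0%, was 22.6% at a fold of 1.5, 49.4% at a fold of 3, 41.2% with totals over listed regions, 40.3% by the authors' p, 44.9% without the crowded regions and 18.1% under strict exclusion. The share with 1 promoter was 51.4% with a minimum of 16 insertions and 61.3% without the crowded regions, and that with 2 promoters 42.9% and 29.1%. The share within 50 kb of a top region was 15.4% with a minimum of 5 insertions and 25.6% under strict exclusion. With settings chosen after seeing the data it was 14.4% within 20 kb and 8.73% around the most used region alone.

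The pooled fold of the Gal4-only regions in hmo1Δ, sef1Δ and yrm1Δ was 9.32, 8.60 and 9.86 at a fold of 1.5, 14.1, 11.6 and 12.2 at a fold of 3, 9.95, 9.24 and 9.76 with totals over listed regions, and 8.37, 7.87 and 8.14 by the authors' p. It was 22.2, 20.5 and 24.0 without the crowded regions, 4.62, 5.55 and 4.85 under strict exclusion, 3.51, 5.09 and 4.62 without galactose promoters, and 3.97, 5.27 and 4.69 without regions near a top region (added after seeing the data). In leu3Δ it was 1.21 without the crowded regions. The counts of enriched Gal4-only regions were 5 in hmo1Δ and 8 in yrm1Δ at a fold of 1.5, 18, 29 and 21 in hmo1Δ, sef1Δ and yrm1Δ at a fold of 3, and 17 and 20 in hmo1Δ and yrm1Δ with totals over listed regions. They were 18 and 23 there by the authors' p, 5, 11 and 7 in hmo1Δ, sef1Δ and yrm1Δ without the crowded regions, 3, 7 and 5 under strict exclusion, 7 in hmo1Δ without galactose promoters and 1 in leu3Δ with a minimum of 5. These settings change which regions are Gal4-only, since the list is rebuilt each time.

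Leaving out each factor library in turn gave totals of 399 to 447, medians per factor of 38 to 42, shares of 35.0% to 41.4%, shares within 50 kb of 15.7% to 20.3%, and 6.77% to 8.75%, 55.3% to 57.9% and 34.6% to 36.9% with 0, 1 and 2 promoters. The Gal4-only fold ranged from 6.72 to 17.3 in hmo1Δ, 6.75 to 11.8 in sef1Δ, 7.07 to 14.4 in yrm1Δ and 0.847 to 0.972 in leu3Δ, and the counts from 11 to 15, 18 to 22, 13 to 17 and 0 to 0. The upper folds came from leaving out Cat8, after which GAL2 and GAL7/GAL10 counted as Gal4-only. Without Yrm1 the Yrr1-only regions numbered 56 instead of 29, and without Yrr1 the Yrm1-only regions 51 instead of 24.

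No paired analysis was possible because each group has 1 library. Motifs were to be counted in promoters, but no sequence was used here and that comparison was not run. With 8 to 12 insertions in 132 members, depth limits which weak regions count as single-factor, and a region not enriched in a second library may still be used there.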

Other observations

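Outside the factors' own pathways, single-factor regions at metabolic genes were mostly weak. MET6, the methionine synthase gene (MET6/IES5), held 105 Leu3 insertions, a fold over background of 4.58 (3.29 to 6.56), and PCL9, a cyclin gene for the Pho85 kinase (INH1/PCL9), held 47 Lys14 insertions (6.27-fold, 3.88 to 10.8). Other Lys14-only regions were HXT1/HXT5, between hexose transporter genes (30 insertions, 3.17-fold), CIT1/ATO2 with the citrate synthase gene CIT1 (42, 2.50-fold) and AFT2/YIG1 with an iron regulator gene (15, 2.87-fold). MET17 was in a Hal9-only region (28 insertions, 3.10-fold) and the sulfur metabolism gene STR3 in an Aro80-only one (20, 2.52-fold). SKY1/GUA1, with the GMP synthase gene GUA1, was Yrr1-only (21 insertions, 3.20-fold), and HMG1/FPR3, with a sterol synthesis gene, as well (21, 2.90-fold). PDC5, a pyruvate decarboxylase gene (CKI1/PDC5), held 17 Put3 insertions (5.73-fold, 2.60 to 14.7). CKI1/PDC5 lies 14.5 kb from RRN5/PUT1, within the Put3 run there, and whether it has a binding site of its own was not tested.

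Of the 425 single-factor regions, 96 shared a flanking gene with another enriched region of the same library, whether that region was single-factor or shared. The same count was not made for shared enriched regions or for all regions. Aro80 had 16 such members, and Tea1 and Put3 had 14 each. A gene other than the flanking ones lay within 149 of the 425 (35.1%), against 34.2% of shared enriched and 16.4% of unenriched regions.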
